A study of Mus musculus with 4 samples.

Results

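CXC chemokine ligands are small proteins, named for a conserved pair of cysteines parted by a single residue, that direct the movement of leukocytes through G protein-coupled receptors. The 9 ligand genes described here were Cxcl1, Cxcl2, Cxcl3, Cxcl9, Cxcl10, Cxcl11, Cxcl13, Cxcl14 and Cxcl16. They were taken by name, with earlier results of these data known, and each was read on the probe set annotated with its symbol alone. All 9 were measured, among 18782 genes in all, with no filter on intensity.

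Expression was measured in alveolar macrophages sorted from lungs of adult mice on a C57BL/6 background, in 2 groups of 2 arrays, with cells of 2 mice pooled for each array. The KO group (CD11c-Cre/Pparg fl/fl) carried floxed alleles of Pparg, the gene of the lipid-sensing nuclear receptor PPARγ, together with a Cre recombinase driven by the promoter of CD11c. That promoter is active in alveolar macrophages and also in dendritic cells and other CD11c-expressing cells, so the deletion is not limited by design to the cells that were sorted. The WT group (Pparg fl/fl) carried the floxed alleles without Cre. The labels call the KO cells immature and arrested and the WT cells mature, and the series title asks what PPARγ does for the identity of these macrophages.

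Both groups were gated as CD45-positive, CD11c-high, autofluorescent and Siglec-F-positive, but with high CD11b for KO cells and low CD11b for WT cells, so the effect of the genotype and that of the gate cannot be told apart. Itgam, the gene of CD11b, read 8.87 and 8.61 on the KO arrays and 3.10 and 2.87 on the WT arrays. Pparg itself read 9.59 and 9.73 in KO and 9.69 and 9.75 in WT (difference -0.06 ± 0.10, SE; limma adjusted p = 0.790). The probes of Pparg could not be placed on its exons with the sources used here, and these readings therefore say nothing about whether the gene was deleted. Of 14 alveolar macrophage markers, 6 were lower in KO and 0 higher, against 6.86% of all genes lower and 7.41% higher. At an unadjusted p under 0.05, 9 were lower and 0 higher. All 14 read at or above the array median of 3.14 on at least 1 array. The median of the 14 differences was -1.93. Those that fell included Krt79 (-6.19), which encodes a keratin, Fabp1 (-5.96), whose product carries fatty acids, and Cidec (-5.67), whose product coats lipid droplets. Siglecf (-3.27), the gene of the gated Siglec-F, also fell and read 6.00 and 6.48 in KO and 9.59 and 9.44 in WT. Of the 8 that did not pass, Chil3, Plet1, Atp6v0d2 and Car4 read above 10 on all 4 arrays. Among the same 8, Marco (-2.62, limma adjusted p = 0.0897), Fabp4 (-2.07, 0.109) and Car4 (-0.315, 0.0853) were lower at an unadjusted p under 0.05.

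The ligands fall into classes by receptor. Cxcl1, Cxcl2 and Cxcl3 carry the ELR motif, bind CXCR2 and draw neutrophils. They are fast targets of NF-κB in macrophages exposed to microbial products. Cxcl9, Cxcl10 and Cxcl11 bind CXCR3 on activated T cells and natural killer cells, and are induced by interferons. Cxcl13 draws B cells through CXCR5, Cxcl14 is a homeostatic chemokine, and Cxcl16, which is made as a transmembrane protein, binds CXCR6 and also acts as a scavenger receptor for oxidised lipoprotein.

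The stretches of promoter below are shown because Cxcl1, Cxcl2 and Cxcl3 are neighbours with a shared NF-κB sequence, while Cxcl9 and Cxcl10 are neighbours that moved in opposite directions. They are from RefSeq (GRCm38.p6), 5′ to 3′ on the strand of the gene, and each ends at the base before the annotated start. Capitals mark matches to GGGANNTTC, which many NF-κB sites hold, and to GAAANNGAA, the core of the interferon-stimulated response element, on either strand. The first 3 lie on the plus strand of chromosome 5, Cxcl1 at chr5:90891115-90891244, Cxcl2 at chr5:90903769-90903898 and Cxcl3 at chr5:90785971-90786100, and the last 2 on the minus strand, Cxcl10 at chr5:92348890-92349139 and Cxcl9 at chr5:92328080-92328329.
Cxcl1: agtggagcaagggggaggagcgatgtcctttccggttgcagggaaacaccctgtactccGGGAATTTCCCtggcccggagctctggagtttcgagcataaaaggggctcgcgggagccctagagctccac
Cxcl2: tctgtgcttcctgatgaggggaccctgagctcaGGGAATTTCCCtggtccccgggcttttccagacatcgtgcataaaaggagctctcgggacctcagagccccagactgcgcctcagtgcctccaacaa
Cxcl3: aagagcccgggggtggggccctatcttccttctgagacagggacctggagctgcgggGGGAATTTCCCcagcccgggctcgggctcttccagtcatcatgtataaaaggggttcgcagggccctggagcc
Cxcl10: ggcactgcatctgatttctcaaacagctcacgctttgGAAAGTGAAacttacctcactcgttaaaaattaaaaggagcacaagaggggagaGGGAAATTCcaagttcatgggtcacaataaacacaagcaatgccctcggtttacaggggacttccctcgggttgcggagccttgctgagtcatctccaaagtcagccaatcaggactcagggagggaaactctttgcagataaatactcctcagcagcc
Cxcl9: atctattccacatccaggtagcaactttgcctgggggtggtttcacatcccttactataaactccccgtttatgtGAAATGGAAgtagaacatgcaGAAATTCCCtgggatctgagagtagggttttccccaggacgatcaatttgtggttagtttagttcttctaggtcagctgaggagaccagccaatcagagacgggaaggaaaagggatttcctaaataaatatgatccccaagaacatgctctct

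In the 3 CXCR2 ligand genes the same run of 11 bases, gggaatttccc, was the longest that their printed stretches shared. It holds a match to GGGANNTTC on each strand, and these matches overlap, the first beginning 71 bases upstream of the start in Cxcl1, 97 in Cxcl2 and 73 in Cxcl3. In Cxcl10 a match to GGGANNTTC began 159 bases upstream and a match to GAAANNGAA 213 bases upstream. Cxcl9 held both as well, at 154 bases on the other strand and at 175 bases upstream. Promoters of 7 of the 9 ligands were found in the RefSeq table, and those of Cxcl11 and Cxcl16 were not used. Among these 7, GGGANNTTC was present in Cxcl1, Cxcl2, Cxcl3, Cxcl9 and Cxcl10, against 3.94% of the 32851 promoters of the same length. GAAANNGAA was present in Cxcl9, Cxcl10 and Cxcl14, against 8.56% of promoters. The longer NF-κB consensus, searched by its full form, was present in Cxcl1, Cxcl2, Cxcl3 and Cxcl10 and not in Cxcl9, against 8.46%. The letters of GGGANNTTC and GAAANNGAA were settled after matches of longer forms had been seen. With 1 more base at the 3′ end, the NF-κB motif was present in Cxcl1, Cxcl2, Cxcl3 and Cxcl10 (1.47% of promoters) and the interferon motif in Cxcl10 and Cxcl14 (3.44%), so that Cxcl9 held neither. Another NF-κB form of 10 bases was present in Cxcl1, Cxcl2 and Cxcl3 (1.63%). The gamma-activated site TTCNNNGAA was present in Cxcl14 (8.3% of promoters), and the direct repeat of AGGTCA with a base between the copies, which PPAR and RXR bind, in 0 of the 7 (0.0396%). Other motifs searched were AP-1 (TGANTCA, in Cxcl9 and Cxcl10, 7.81%), the cAMP response element (TGACGTCA, in 0 of the 7, 1.79%), C/EBP (TTNNGNAA, in Cxcl2, Cxcl9, Cxcl10 and Cxcl13, 40.7%) and the TATA box (TATAAA, in Cxcl3, Cxcl9 and Cxcl13, 13.6%). The stretches searched, unlike those printed, ran past the annotated start, and the AP-1 match of Cxcl9 lay there, at bases 32 to 38. The TATAAA match began 195 bases upstream in Cxcl9, 30 in Cxcl3 and 46 in Cxcl13. A match is a description of the sequence and not evidence of binding. Whether any of these forms bears on the opposite changes of Cxcl9 and Cxcl10 was not tested.

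Of the 9 ligands, 5 were higher in KO, 1 was lower and 3 did not pass the test, which asked for a limma p adjusted over all genes under 0.05. Over all genes tested 7.41% were called higher and 6.86% lower, 14.3% in both directions. The median difference, KO minus WT, was 0.73 on the log2 scale for the ligands and -0.01 for all genes. The KO and WT arrays did not overlap for 8 of the 9, with KO above WT for 7 and below for 1, against 55.3% of all genes without overlap, 25.3% with KO above and 30.0% below. Cxcl1, Cxcl16 and Cxcl10 had the largest differences among the ligands, and of all genes 43 had a larger increase than Cxcl1, 55 than Cxcl16 and 158 than Cxcl10.

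**Figure D1:**
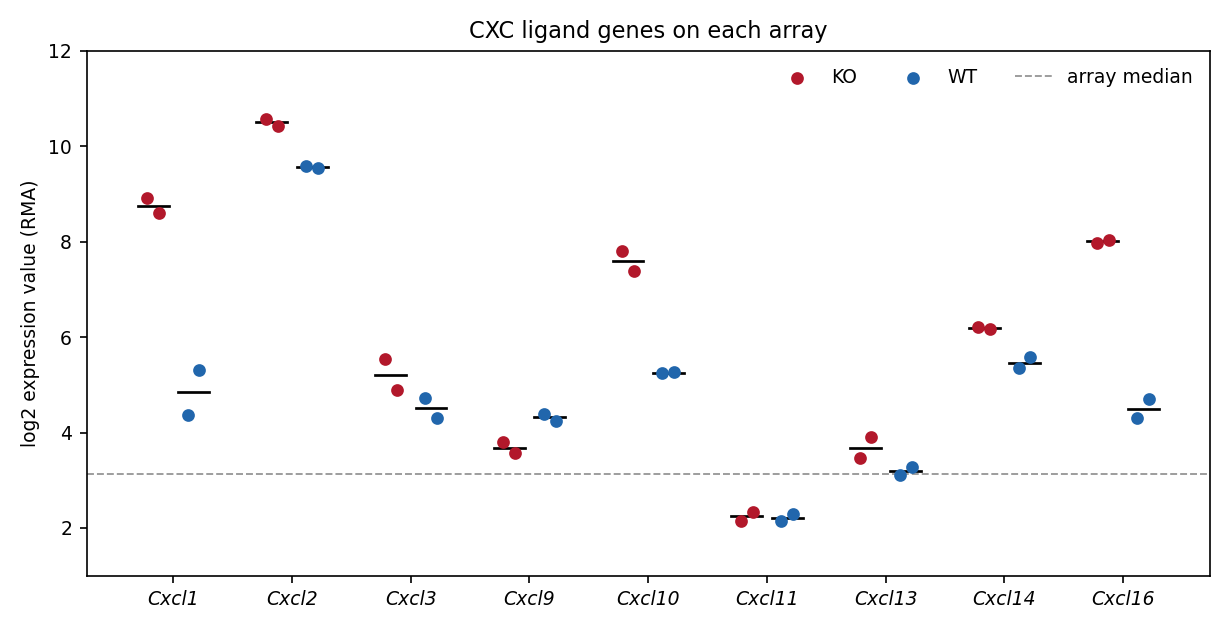
Log2 expression value of each CXC ligand gene (vertical axis) on the KO arrays (red) and the WT arrays (blue), with 2 arrays a group, black bars at the group means and a dashed line at the array median of 3.14. Both KO points lie above both WT points for 7 genes and below them for Cxcl9, and the groups overlap for Cxcl11. Heights of different genes are not comparable, since their probes differ.

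Among the neutrophil-attracting ligands, Cxcl1 read 8.92 and 8.60 on the KO arrays and 4.36 and 5.32 on the WT arrays. Both KO arrays stood far above both WT arrays, which were themselves farther apart than the KO arrays. The difference was 3.92 ± 0.30 (SE; adjusted p = 6.75e-04), or 15.1-fold on the RMA scale. Cxcl2 read 10.57 and 10.43 in KO and 9.58 and 9.54 in WT, bright in both groups and without overlap. It rose by 0.94 ± 0.10 (adjusted p = 0.00227), or 1.92-fold. Cxcl3 read 5.55 and 4.88 in KO and 4.72 and 4.30 in WT. Its groups did not overlap but lay close, with a gap of 0.16 between the lowest KO and the highest WT array, and the difference of 0.70 ± 0.24 did not pass (adjusted p = 0.122; 95% confidence interval 0.11 to 1.29).

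These 3 genes are close relatives, and the letters of their probes were not used here, so signal passed between their probe sets by similar transcripts was not tested. Contrasts within arrays are given for pairs chosen after the values were seen, and so with no test. Cxcl1 minus Cxcl2 was -1.65 and -1.83 on the KO arrays and -5.22 and -4.22 on the WT arrays, a shift of 2.98, and Cxcl1 minus Cxcl3 was 3.37 and 3.71 in KO and -0.36 and 1.02 in WT, a shift of 3.21. The KO arrays lay above the WT arrays in both contrasts. Cxcl2 lay high on a scale that ended at 12.11, where signal can flatten, and whether this understates its rise was not tested.

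Among the CXCR3 ligands, Cxcl10 read 7.81 and 7.38 on the KO arrays and 5.25 and 5.26 on the WT arrays. The WT arrays were nearly equal and both KO arrays lay more than 2 log2 units above them. The difference was 2.34 ± 0.16 (adjusted p = 3.92e-04), or 5.07-fold. Cxcl9, which lies near it on the chromosome, read lower in KO, with 3.79 and 3.56 in KO and 4.39 and 4.24 in WT. The groups did not overlap, and Cxcl9 fell by 0.64 ± 0.12 (adjusted p = 0.0190), at levels not far above the array median. The call rested on the full set of arrays, since the adjusted p was 0.102 without KO replicate 2 and 0.0829 without WT replicate 1.

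Cxcl11 read 2.16 and 2.34 in KO and 2.15 and 2.28 in WT, below the array median on all 4 arrays and with overlapping groups. The difference was 0.04 ± 0.11 (adjusted p = 0.892; 95% confidence interval -0.24 to 0.31). RefSeq lists the gene in the C57BL/6J assembly as a transcribed pseudogene, and these mice are on a C57BL/6 background. The signal of Cxcl10 minus that of Cxcl9 was 4.02 and 3.81 on the KO arrays and 0.86 and 1.02 on the WT arrays, a shift of 2.98 with no overlap, for a pair also chosen after the values were seen.

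Cxcl16 showed the smallest adjusted p of the 9. It read 7.97 and 8.04 on the KO arrays and 4.31 and 4.69 on the WT arrays. The KO arrays were close to each other and lay at least 3.28 above the WT arrays, and the difference was 3.50 ± 0.15 (adjusted p = 7.93e-05), or 11.3-fold. Cxcl14 read 6.22 and 6.18 in KO and 5.36 and 5.57 in WT, a smaller step without overlap. It rose by 0.73 ± 0.11 (adjusted p = 0.00845), or 1.66-fold, with an adjusted p of 0.0633 without KO replicate 1 and 0.0541 without KO replicate 2. Cxcl13 read 3.46 and 3.91 in KO and 3.11 and 3.28 in WT, near the array median. Its groups were parted by 0.18, and the difference of 0.49 ± 0.16 did not pass (adjusted p = 0.115; 95% confidence interval 0.09 to 0.89).

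**Figure D2:**
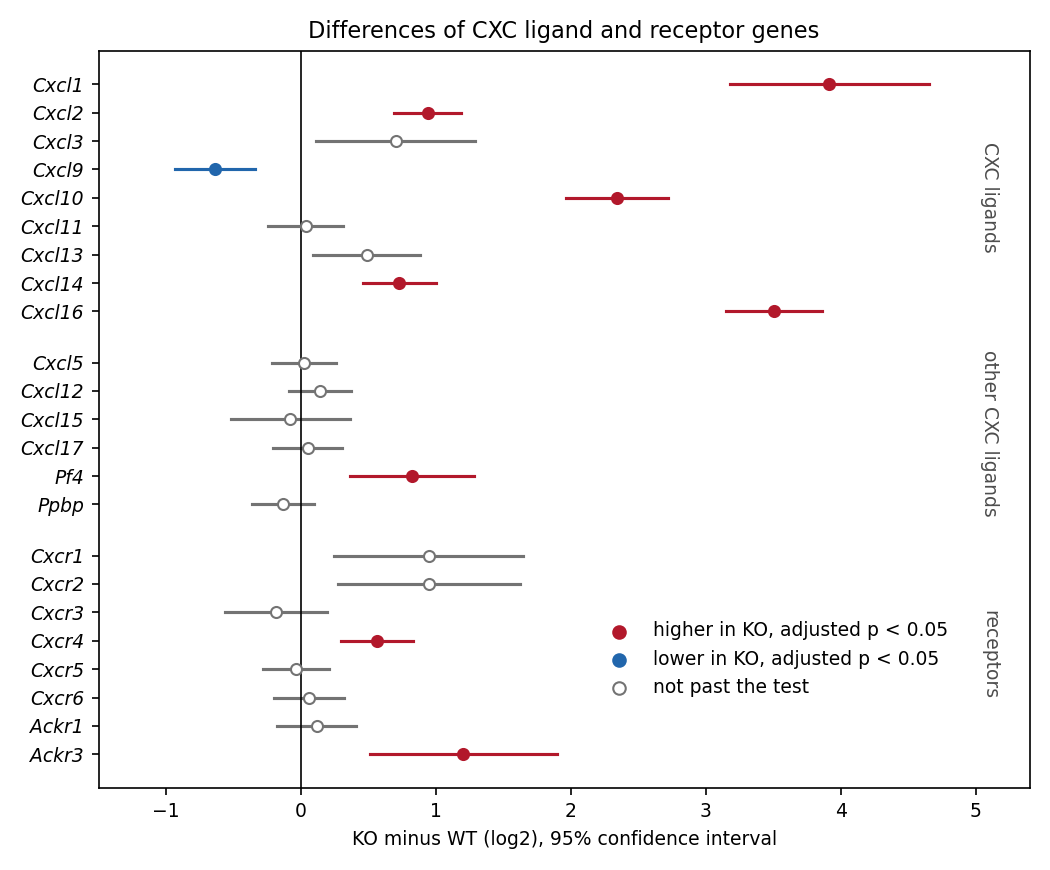
Log2 difference, KO minus WT (horizontal axis), with its 95% confidence interval from limma for the 9 CXC ligands, 6 other CXC ligands and 8 receptor genes, 2 arrays a group. Filled points passed the test (red higher, blue lower in KO) and open points did not. Among the 9 ligands Cxcl1, Cxcl16 and Cxcl10 lie above 2, and Cxcl9 is the gene to the left of 0 that passed.

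Most of the ligands have other CXC ligand genes as neighbours. In RefSeq order on chromosome 5, Cxcl5, Ppbp, Pf4, Cxcl3, Cxcl15, Cxcl1 and Cxcl2 lie in a row with no other gene between them. Of these 7 genes, 3 were higher in KO and 0 lower (0 also at an unadjusted p under 0.05 in this group of genes), against 7.41% of all genes higher and 6.86% lower. Pf4, which encodes platelet factor 4, read 4.50 and 3.97 in KO and 3.52 and 3.31 in WT, a difference of 0.82 ± 0.19 (adjusted p = 0.0353). It did not pass without KO replicate 1 (adjusted p = 0.108), without WT replicate 1 (0.0634) or without WT replicate 2 (0.111). Cxcl15 lies between Cxcl3 and Cxcl1 and read 1.93 and 1.94 on the KO arrays and 2.29 and 1.74 on the WT arrays, below the array median throughout. In the second row, Cxcl9, Art3, Cxcl10 and Cxcl11, 1 gene was higher and 1 lower, and the gene between Cxcl9 and Cxcl10, Art3, differed by -0.12 ± 0.09 (adjusted p = 0.505). Cxcl13 lies on chromosome 5 outside both rows, and Cxcl14 on chromosome 13 and Cxcl16 on chromosome 11 lie apart from the others.

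**Figure D3:**
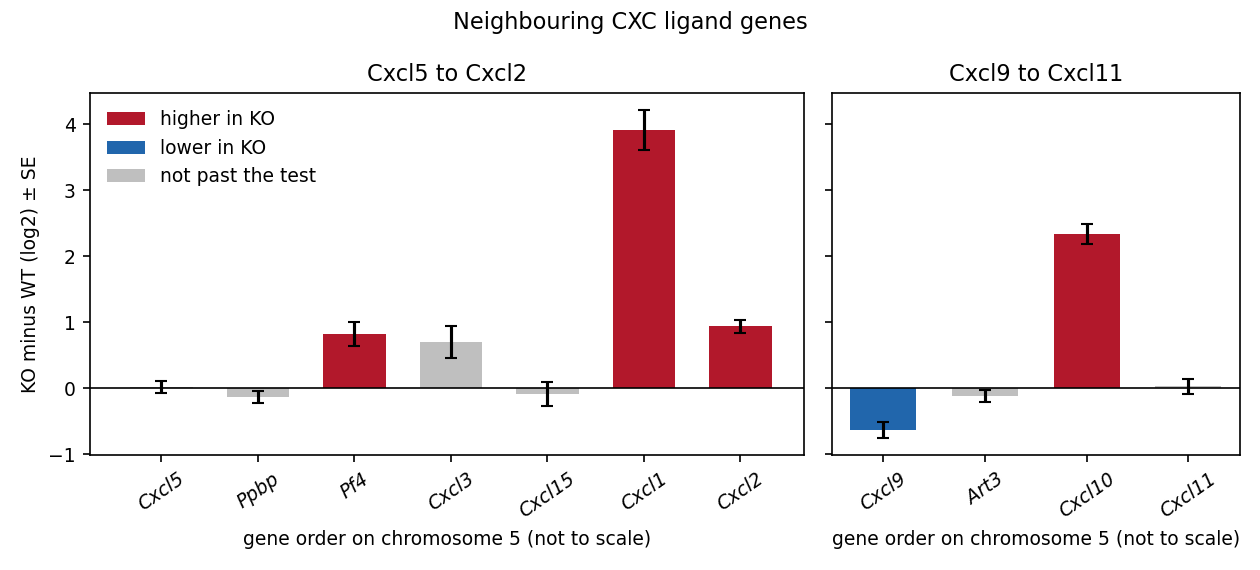
Log2 difference, KO minus WT, and its SE for neighbouring genes in their order on chromosome 5, distances not to scale, from fits with 2 arrays a group. Red bars were higher in KO, blue lower, grey not past the test. Cxcl1 stands at 3.92 beside Cxcl15 at -0.08, and Cxcl10 at 2.34 lies between Art3 and Cxcl11, which did not pass.

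Of the 6 other CXC ligand genes, Pf4 was the member called, against 7.41% of all genes called higher. Cxcl5, Cxcl12, Cxcl15 and Ppbp read below the array median on all arrays, and Cxcl17, with 3.05 and 3.22 in KO and 3.11 and 3.07 in WT, lay at about that level.

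Of 8 receptor genes of CXC ligands, 2 were higher in KO, 0 lower (0 also at an unadjusted p under 0.05) and 6 did not pass, against 7.41% of all genes higher and 6.86% lower, and 4 read below the array median on all arrays. Cxcr2, the receptor of Cxcl1, Cxcl2 and Cxcl3, read 5.12 and 5.47 in KO and 4.77 and 3.92 in WT, a difference of 0.95 with an adjusted p of 0.0770. Cxcr1 read 6.64 and 6.78 in KO and 6.24 and 5.29 in WT (0.945, adjusted p = 0.0878). At an unadjusted p under 0.05, 4 receptor genes were higher, Cxcr1 and Cxcr2 among them. The count of calls was 4 with an intensity trend in limma. Cxcr3, the receptor of Cxcl9 and Cxcl10, differed by -0.18 (adjusted p = 0.538), and Cxcr5 and Cxcr6, which bind Cxcl13 and Cxcl16, differed by -0.04 and 0.06 at levels under 2.4. The members called were Cxcr4, the receptor of Cxcl12, with 9.33 and 9.41 in KO against 8.71 and 8.90 in WT (0.56 ± 0.11, adjusted p = 0.0203), and the scavenging receptor gene Ackr3, with 3.52 and 2.58 in KO against 1.87 and 1.82 in WT (1.20 ± 0.29, adjusted p = 0.0399). Cxcr4 did not pass without KO replicate 1 (adjusted p = 0.0858), without KO replicate 2 (0.114) or without WT replicate 1 (0.0910), and Ackr3 did not pass without WT replicate 1 (0.101) or without WT replicate 2 (0.0985).

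Several proteases act on these ligands. ADAM10 and ADAM17 release Cxcl16 from the membrane, the dipeptidyl peptidase DPP4 trims CXCR3 ligands, and metalloproteinases cut CXC ligands and so change their activity. Of 6 such genes 2 were higher in KO and 0 lower (7.41% and 6.86% of all genes), with Dpp4 (-0.48, adjusted p = 0.0525) lower at an unadjusted p under 0.05. Adam10 read 8.43 on both KO arrays and 8.16 and 8.22 on the WT arrays (0.24 ± 0.09, adjusted p = 0.174), and Adam17 differed by 0.08 (adjusted p = 0.676). Neither sheddase gene passed, against the difference of 3.50 in Cxcl16, but Adam10 was higher at an unadjusted p under 0.05. Mmp12, the macrophage elastase gene, read 10.21 on both KO arrays and 3.97 and 4.22 on the WT arrays (6.11 ± 0.12, adjusted p = 8.27e-06). Mmp8 read 9.82 and 9.88 in KO and 6.40 and 7.78 in WT (2.76 ± 0.40, adjusted p = 0.00712), and did not pass without KO replicate 1 (0.0589) or without KO replicate 2 (0.0595).

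Many genes of the NF-κB pathway and its targets were higher in KO together with Cxcl1, Cxcl2 and Cxcl10. Of 27 measured genes 14 were higher, 0 lower (0 also at an unadjusted p under 0.05) and 13 did not pass, with a median difference of 0.64 against -0.01 for all genes, of which 7.41% were higher and 6.86% lower. The members with the smallest p were Nfkbiz (2.31 ± 0.14), Nfkbie (1.73 ± 0.16), Bcl3 (1.25 ± 0.13) and Il1a (0.86 ± 0.11), with adjusted p from 2.65e-04 to 0.00365. Nfkbiz encodes IκBζ, a nuclear cofactor of NF-κB, and read 8.58 and 8.34 on the KO arrays and 6.28 and 6.01 on the WT arrays. Of the 13 that did not pass, Ccl4 (-0.38), Tnfaip2 (-0.10), Cd40 (-0.085), Icam1 (-0.084) and Ccl5 (-0.015) had differences below 0. The rest of the 13 lay above 0, among them Ccl3 (0.105), and Nfkb1 was not measured. The count was 6 without KO replicate 1 and 9 without KO replicate 2.

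Interferon gamma induces Cxcl9, Cxcl10 and Cxcl11. Of 22 measured genes of its pathway, 5 were higher, 1 lower and 16 did not pass, with a median of 0.09, against 7.41% of all genes higher and 6.86% lower. Nlrc5, a regulator of MHC class I genes, differed by 1.10 ± 0.12 (adjusted p = 0.00195), the receptor gene Ifngr2 by 0.94 ± 0.13 (0.00522), the GTPase gene Gbp3 by 0.80 ± 0.13 (0.00978) and Ifngr1 by 0.64 ± 0.13 (0.0213). Nlrc5 has 19 single-gene probe sets, of which the brightest was used, and their mean differed by 0.68 (adjusted p = 0.00546). The lower gene was Tap2, a peptide transporter gene named here because it was the sole one (-0.50 ± 0.10, adjusted p = 0.0239), and the lower count was 0 when any 1 array was left out. The higher count was 2 without KO replicate 1 and 3 without WT replicate 1. Gbp3 did not pass without KO replicate 1 (0.0734), and Ifngr1 without KO replicate 1 (0.110), KO replicate 2 (0.107) or WT replicate 1 (0.0759). Ifng itself read under 2.4 on every array.

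**Figure D4:**
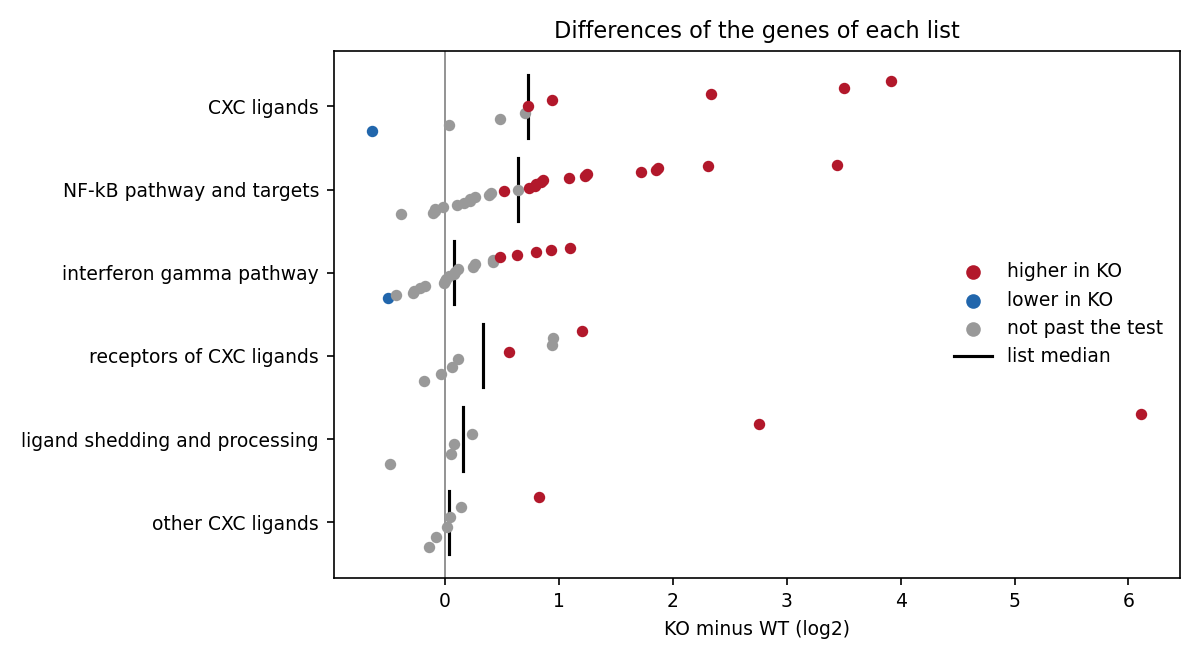
Difference KO minus WT on the log2 scale (horizontal axis) for each gene of 6 lists, with a black line at the list median, red points higher in KO, blue lower and grey not past the test, from 2 arrays a group. The NF-κB list has 14 red points and a median of 0.64, the interferon gamma list 5 red points, 1 blue point and a median of 0.09.

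Markers of other cells that make or answer these ligands moved in part with the genotype. In bulk RNA of sorted cells, fewer cells of a type and less RNA per cell cannot be told apart. The counts below stand against 7.41% of all genes higher and 6.86% lower. Of 14 interstitial macrophage markers 11 were higher in KO and 1 lower, with a summed linear signal of 5403 to 5561 on the KO arrays and 1850 to 1966 on the WT arrays, and of 9 monocyte markers 5 were higher and 2 lower (4405 to 4493 in KO, 3213 to 3676 in WT). The interstitial macrophage markers with the smallest p were the complement genes C1qc (4.84) and C1qa (3.77) and the phospholipase gene Pla2g2d (5.23). The lower one was Mrc1 (-0.44), which read 10.13 and 10.16 in KO and 10.6 and 10.57 in WT. Mrc1 weighs heavily in the linear sums, as does Apoe (3.91), which read 11.22 on both KO arrays. The lower monocyte markers were Cd300e (-2.595) and Treml4 (-2.39), and the higher ones Ccr2 (1.82), Ace (0.96), Fn1 (0.74), F13a1 (0.69) and Vcan (0.48). Fn1 and Nr4a1 (0.05, not past the test) read above 10 on all 4 arrays and weigh heavily in the monocyte sums. Of 11 neutrophil markers 2 were higher and 1 lower (1088 to 1117 in KO, 294 to 471 in WT), and 6 read below the array median on all arrays, among them the granule genes Elane, Mpo, Camp, Ltf and Ngp. The markers called were S100a8 (1.92, adjusted p = 0.00126) and Mmp8, both higher, and Csf3r (-1.54, adjusted p = 0.00265), the gene of the G-CSF receptor, which read 5.69 and 5.87 in KO and 7.08 and 7.57 in WT. At an unadjusted p under 0.05, 5 neutrophil markers were higher and 2 lower. Besides those called, the higher ones were Cxcr2, S100a9 (0.57, adjusted p = 0.112) and Retnlg (0.57, adjusted p = 0.150). Retnlg read below the array median on all arrays. The further lower one was Camp (-0.25, adjusted p = 0.182). Sums without single bright genes were taken after the values were seen. The neutrophil sum was 176 to 182 in KO and 210 to 252 in WT without Mmp8, and 118 to 130 in KO and 61.7 to 74.2 in WT without Mmp8 and Csf3r. Of 14 genes of cell stress and dissociation, which the 45 minutes of digestion at 37 °C can touch, 5 were higher and 0 lower (0 also at an unadjusted p under 0.05), with sums of 9089 to 9165 in KO and 8015 to 9055 in WT. The 5 were Socs3 (3.43), Ier3 (1.77), Egr1 (1.26), Junb (0.50) and Dnajb1 (0.44), and 9 did not pass. Of 10 dendritic cell markers 1 was higher and 1 lower (159 to 251 in KO, 135 to 138 in WT), and without Clec9a, which did not pass, the sums were 104 to 124 in KO and 90.5 to 111 in WT. Of 7 B cell markers 0 passed in either direction (0 also at an unadjusted p under 0.05; 45.5 to 45.8 in KO, 43.5 to 48.9 in WT), and of 10 T and NK cell markers 1 was higher and 1 lower (58.5 to 62.2 in KO, 53.5 to 57.7 in WT). Of 12 epithelial markers 1 was lower (310 to 315 in KO, 238 to 345 in WT), and of 12 fibroblast and endothelial markers 1 was higher (217 to 223 in KO, 135 to 146 in WT). That gene was Vwf, and without it the sums were 66.3 to 72.8 in KO and 67.1 to 79.9 in WT. The part of these cells or of the handling in the differences of the ligands was not tested.

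Cxcl1 had the largest difference among the 9, and the genes whose profile over the 4 arrays was nearest to it, by Euclidean distance between log2 values centred on each gene's mean, were Gask1b (0.12), Adgre5 (0.27), Cpeb1 (0.30), Flrt3 (0.33) and Ephx1 (0.39). Gask1b read 8.14 and 7.98 in KO and 3.67 and 4.56 in WT, a difference of 3.95. With 4 arrays such likeness mostly reflects a similar difference between the groups.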

How the data were processed

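RNA of sorted alveolar macrophages was hybridised as biotin-labelled cDNA to Affymetrix arrays, 2 per genotype. Per the submitters' processing notes, RMA under R 2.15.2 turned the scans into the deposited log2 values, with 1 value per probe set and array. Its settings are, like the genome build, not given in the sources used here. The table held 28371 probe sets from 0.96 to 12.11, and the sorted arrays differed by at most 0.012, so a change of most transcripts in one direction would not be seen. Low values are compressed, so folds of dim genes are understated.

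The platform annotation gave 21158 probe sets 1 symbol, 1881 several and 5332 none. For each gene the single-symbol probe set with the highest mean was used, which gave 18782 genes. The groups were compared in limma 3.58.1 (R 4.3.3), group as the only term, two-sided, with 2 residual and 4.16 prior degrees of freedom and Benjamini-Hochberg adjustment over all genes, past the test under 0.05. The number of arrays limits the precision. Arrays correlated with r = 0.996 within KO, 0.995 within WT and 0.974 to 0.980 across genotypes. Deviations of same-numbered arrays correlated with r = -0.02, so replicate numbers were not taken as pairs.

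The members and all gene lists were chosen with earlier results of these data known. All 9 ligands are named; of each pathway list, up to 4 genes past the test with the smallest p are named. Other genes, those of the marker lists included, were chosen after their values were seen. Of 74 entries of 5 pathway lists 69 were measured, and of 125 entries of 10 marker lists 113; the others were not analysed here. The procedure was tested on simulated data. Alternatives were the centring of arrays, a filter on dim genes, the choice of probe set, the features tested, the variance model, a replicate block and leaving out each array.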

Additional observations from a re-analysis of the deposited data

Results flagged for a closer look

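A further probe set names Cxcl16 together with Zmynd15 and was used in no comparison, because its signal cannot be given to either gene. It read 3.92 and 3.62 on the KO arrays and 3.41 and 3.54 on the WT arrays. It is singled out because both KO arrays lay above both WT arrays, by 0.29 on average on the log2 scale, while the probe set of Cxcl16 alone differed by 3.50. Which of the 2 genes gave this signal was not tested.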

How the results depend on the processing

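With bright-gene centring, dim genes left out, probe sets averaged, all probe sets adjusted over, an intensity trend or robust hyperparameters, 5 ligands were higher and 1 lower in KO. Dim genes left out could give no value for Cxcl11. An ordinary test without moderation called 0 ligands and 0 of all genes in either direction, and 0 in each list, with 6 ligands and 3635 genes at an unadjusted p under 0.05. Its adjusted p was 0.184 for Cxcl1 (3.92), 0.160 for Cxcl2 (0.94), 0.244 for Cxcl9 (-0.64), 0.169 for Cxcl10 (2.34), 0.198 for Cxcl14 (0.73) and 0.152 for Cxcl16 (3.50). The cause was not tested, but the test has only 2 residual degrees of freedom.

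Leaving out any 1 array gave fits with fewer samples. Between 4 and 5 ligands were then higher and between 0 and 1 lower, against 726 to 1227 and 647 to 1057 of all genes. Cxcl1, Cxcl2, Cxcl10 and Cxcl16 passed in all 4 such fits. Cxcl9 ranged from -0.75 to -0.52 and Cxcl14 from 0.62 to 0.84, each past the test in 2 of 4. Cxcl11 ranged from -0.06 to 0.13 and turned sign, with -0.059 without KO replicate 2 and -0.03 without WT replicate 1. Counts of higher genes ranged from 0 to 1 for the other CXC ligands, 1 to 2 for receptors, 1 to 2 for proteases, 2 to 4 for the interferon gamma list and 6 to 13 for the NF-κB list, and the interferon gamma list had 0 lower in each. With all probe sets adjusted over, 0 other ligands and 1 receptor passed as higher. With dim genes left out 3 of the 8 receptors kept a value, Ackr3 not among them, and 1 passed. With an intensity trend 4 receptors were higher and 2 interferon gamma genes lower.

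With the replicate number as a block, 6 ligands were higher and 1 lower, since Cxcl3 (0.70) had an adjusted p of 0.0171, and 1309 of all genes were higher and 1168 lower. The numbers share no more than a name here, and the block changed no other call among the ligands. Only 2 arrays per group limit every value, and dim genes such as Cxcl11 and Cxcl13 have little signal above the floor.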
